A study of Homo sapiens with 45 samples.

Results

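Interferon-stimulated and antigen presentation genes were followed in HCT116-VR cells. These are colorectal carcinoma cells of the line HCT116 that became resistant to vorinostat, a histone deacetylase inhibitor, by growth in rising concentrations of it. The set was a list of 47 gene symbols, matched to the Ensembl identifiers of the normalised expression table, and 38 of them were among its 15698 genes. The 9 that were not analysed here were OAS1, MX1, XAF1, SAMD9L, IFI44, IFI44L, DHX58, IRF9 and PSMB8. Cells were mock transfected with lipid only or transfected with 1 of 14 siRNAs at 40.0 nM (siGENOME SMARTpools against BEGAIN, CCNK, CDK10, DPPA5, EIF3L, GLI1, JAK2, NFYA, POLR2D, PSMD13, RGS18, SAP130, TGM5 and TOX4), and were harvested after 48 h. The 15 groups have 3 libraries each, 1 per biological experiment, and 45 in all. All of them came from the same resistant line, with no parental HCT116 cells and, per the labels, no drug named in the transfection. Mock cells received no siRNA, so that an effect of transfected RNA as such and an effect of a target's loss are both part of each difference from mock.

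Type I, II and III interferons bind cell surface receptors that signal through JAK kinases and STAT factors. STAT complexes then bind the interferon-stimulated response element (ISRE), together with IRF9, or gamma-activated sites (GAS) in the promoters of interferon-stimulated genes. Double-stranded RNA in the cytosol is read by RNA sensors such as IFIH1 (MDA5), which feed into the same response through IRF3 and IRF7, and this is why these genes are read when siRNA is delivered to cells. A part of the response raises MHC class I, which shows peptides cut by the proteasome and carried into the endoplasmic reticulum by TAP to T cells.

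The names of the libraries need a caution that precedes all results. Library numbers were joined to conditions through a list of samples in the supplement, and the siRNA targets went against that list. Of the 33 places made up by the 3 lowest libraries of the 11 target genes in the table, 3 were taken by libraries whose listed siRNA is the one against the gene. Libraries are therefore called by their listed name only ("the library listed as mock replicate 1"), and no library was given another condition. Tests were made by the listed names. Beside them stands a description that uses no names, in which the 45 libraries fell into 15 sets of 3 libraries each in a tree built from 2166 other variable genes, without the interferon genes, the other pathway genes and the siRNA targets. All 15 sets joined libraries listed under 3 different names, and all 15 stood in adjacent columns of the deposited table. The sets are lettered A to O by how many of the 38 genes had their highest or lowest libraries there. For 10 of the 11 target genes the 3 lowest libraries formed exactly 1 set. No condition was assigned to any set, so the libraries of a set are given one by one and were not averaged or tested.

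Between 7569592 and 21149597 reads per library fell on the genes of the table (median 11551126). A count of 0 allows up to 3 reads, and in the library with the fewest reads 3 reads correspond to a log2 value of -1.07, so values near or under this lie at the limit of detection (counting error only). No pair of libraries was alike within sampling noise, with a lowest chi-square per degree of freedom of 2.56 among 990 pairs. Of 9 colon epithelial markers, 6 were in the table (EPCAM, CDH1, KRT8, KRT18, KRT19 and CDX2), while VIL1, CEACAM5 and LGR5 were not. Of 9 leukocyte markers 0 were in the table, and of 6 fibroblast and endothelial markers COL1A1 alone was. In bulk RNA, fewer cells that express a gene and less RNA per cell cannot be told apart.

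Promoters are shown for 6 genes whose libraries are described below, chosen so that 2 come from the genes lowest in set A (OAS3, PARP14), 2 from the genes highest in set B (B2M, BST2) and 2 from genes that differ from both (ISG15, IFIT1). Each is the 150 bases before the RefSeq start site on GRCh38.p14, in the direction of transcription, and capitals mark ISRE letters (GAAA, any 2 bases and GAAA again, on either strand, where overlapping matches run together). The windows are OAS3 chr12:112938324-112938473 (plus strand), PARP14 chr3:122680689-122680838 (plus strand), ISG15 chr1:1013347-1013496 (plus strand), IFIT1 chr10:89392473-89392622 (plus strand), B2M chr15:44711367-44711516 (plus strand) and BST2 chr19:17405631-17405780 (minus strand).
OAS3: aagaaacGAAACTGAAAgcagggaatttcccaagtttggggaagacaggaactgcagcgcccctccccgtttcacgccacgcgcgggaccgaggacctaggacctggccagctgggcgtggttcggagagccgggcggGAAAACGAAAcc
PARP14: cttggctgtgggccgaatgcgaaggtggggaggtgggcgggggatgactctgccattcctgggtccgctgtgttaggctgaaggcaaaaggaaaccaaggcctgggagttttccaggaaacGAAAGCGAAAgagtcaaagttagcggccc
ISG15: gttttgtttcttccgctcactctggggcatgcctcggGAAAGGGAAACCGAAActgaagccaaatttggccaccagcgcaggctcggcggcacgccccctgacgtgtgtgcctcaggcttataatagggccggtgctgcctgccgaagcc
IFIT1: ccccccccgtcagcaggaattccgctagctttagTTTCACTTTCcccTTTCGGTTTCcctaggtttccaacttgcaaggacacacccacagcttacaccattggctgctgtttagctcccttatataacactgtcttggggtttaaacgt
B2M: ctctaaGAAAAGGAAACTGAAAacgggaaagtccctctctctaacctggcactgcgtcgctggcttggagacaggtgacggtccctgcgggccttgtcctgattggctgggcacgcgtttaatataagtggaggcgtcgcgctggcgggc
BST2: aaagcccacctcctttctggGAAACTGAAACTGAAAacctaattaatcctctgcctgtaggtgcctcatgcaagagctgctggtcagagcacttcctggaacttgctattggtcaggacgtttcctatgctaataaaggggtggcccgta
Of the 38 genes, 31 had a promoter in the RefSeq table; IFIT2, OASL, USP18, IFITM2, IRF2, IRF3 and IRF7 did not. In the 250 bases before the start, 18 of these 31 (58.1%) held the ISRE letters, against 3.02% of 35116 promoters. GAS letters (TTCNNNGAA, both strands) stood in 7 of 31 (22.6%), against 6.57% of all promoters, and CCAAT (both strands) in 13 of 31 (41.9%), against 32.0%. These are letter matches in a window, and no binding was measured.

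The genes of the list spanned a wide range of levels, and antigen presentation genes were at the top of it. Per kb of exon, HLA-C, a classical MHC class I heavy chain, had a median of 104 CPM over the 45 libraries and B2M, the light chain shared by all class I molecules, had 96.3. IFITM3, a membrane protein that blocks virus entry, had 55.5, ISG15, a ubiquitin-like protein conjugated to other proteins, had 52.6, and ADAR, which edits adenosine in double-stranded RNA, had 36.5. At the other end, IFI27 had a median of 0.081 CPM per kb, TLR3, the endosomal sensor of double-stranded RNA, had 0.122, and PSMB9, an immunoproteasome subunit, had 0.161. A median of at least 10 reads was reached by 35 of the 38 genes, and IFI27, IFITM1 and PSMB9 were under it, with 24, 16 and 12 of 45 libraries at or under 3 reads. Levels are set per length over the union of exons in GENCODE 44 on GRCh37.

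**Figure D1:**
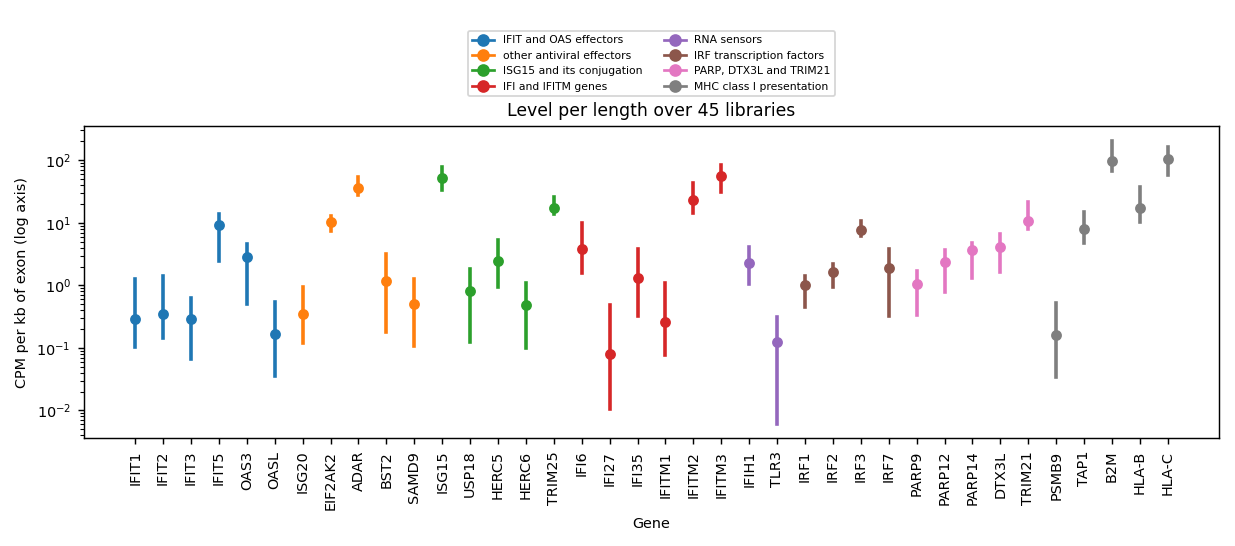
Level per length of the 38 genes in CPM per kb of exon on a log axis, coloured by role. Points are medians and lines run from the lowest to the highest of 45 libraries, from IFI27 with a median of 0.081 to HLA-C with 104.

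A large spread over the libraries, a s.d. of the log2 value of at least 0.75, was found for 12 of the 38 genes, and for 14% of all genes. The median s.d. of the 38 genes was 0.565, beside 0.404 for all 15698 genes. The number depends on the level, since weakly expressed genes spread more, and 9 of the 35 genes with a median of at least 10 reads passed. The 14% of all genes was not limited by reads in this way. With a s.d. of at least 1.00, 3 of the 38 genes passed (IFI27, PSMB9 and TLR3, which are among the lowest of the list). Their s.d. was above that of 96.8%, 95.2% and 94.8% of all genes.

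By the listed names, no difference between an siRNA and mock passed the test for any of the 38 genes. A limma fit of all 45 libraries covered 15695 genes, and a gene was called where its Benjamini-Hochberg adjusted p was under 0.05 and its log2 fold change was 1 or more in size. Of the 38 genes, 0 met this in each of the 14 comparisons and in the mean of the 14 siRNAs against mock. The share called among all genes was 0% in each of the 15 as well. At an unadjusted p under 0.05, 20 of 570 tests of the 38 genes passed, against 4.79% of all tests. The lowest adjusted p was 0.515, for PARP12 in the libraries listed as siPSMD13, with a log2 fold change of -0.96 and a standard error of 0.41. The most unadjusted passes fell to the libraries listed as siDPPA5, with 6 of 38 beside 7.51% of all genes, and the median log2 fold change of the 38 genes there was -0.39, beside 0.01 for all genes.

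The mean of all 14 siRNAs against mock, by listed names, gave 0 of 38 genes with an unadjusted p under 0.05. Its lowest adjusted p in the limma fit was 0.878, for IFIT5, with a log2 fold change of 0.56 and a standard error of 0.30. Of the 38 genes, 18 were above mock and the median log2 fold change was -0.07, beside 0.02 for all genes. The library listed as mock replicate 2 had the lowest POLR2D value of all 45 libraries, at 2.92 beside a median of 6.43. Since the targets went against the list, these tests compare libraries by listed names. Neither a change nor its absence can be read from them, for a target or for siRNA as such.

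**Figure D2:**
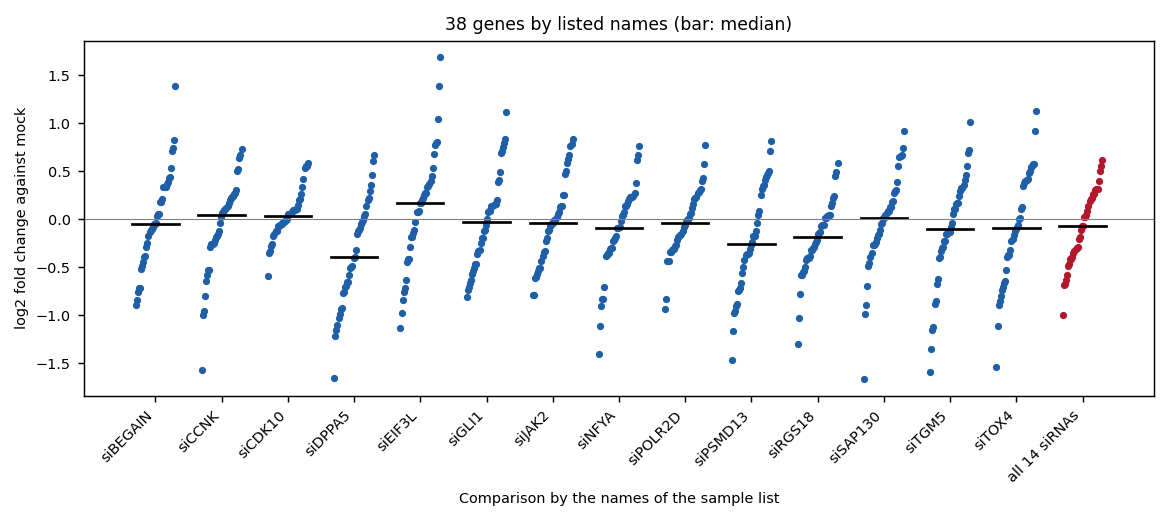
Log2 fold change against mock of the 38 genes in each of the 14 comparisons by listed names and in their mean, from 1 fit of 45 libraries. Each point is a gene and bars are medians; the 532 values of the 14 siRNAs lie between -1.67 and 1.69, and 0 were called.

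Without names, the values of many genes followed the sets. The 3 highest libraries formed exactly 1 set for 19 of the 38 genes, and for 32.9% of all genes. The 3 lowest formed 1 set for 12 of the 38, and for 34.7% of all genes. Sets A and B were singled out after the values were seen, as those with the most such genes.

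**Figure D3:**
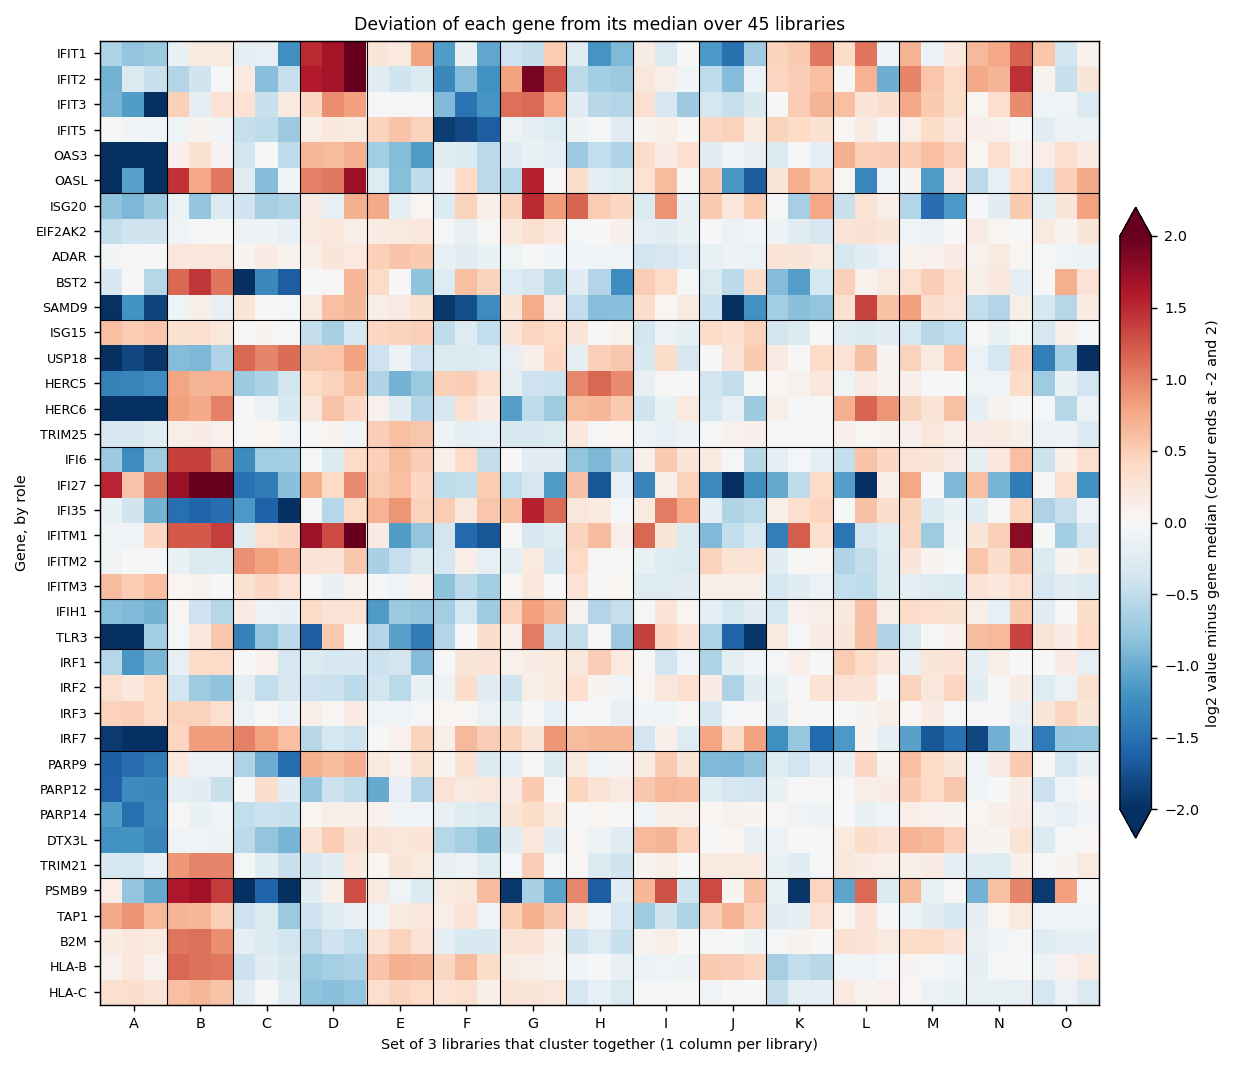
Log2 value minus the gene's median over 45 libraries for the 38 genes (rows, by role) in the 45 libraries (columns, in sets A to O); colours end at -2 and 2. Set A holds the 3 lowest libraries of 8 genes and set B the 3 highest libraries of 8 others.

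Set A held the lowest libraries for a block of interferon-stimulated genes. It joins the libraries listed as siTOX4 replicate 3, siDPPA5 replicate 2 and siPSMD13 replicate 3, and it also held the 3 lowest libraries for SAP130, a subunit of the SIN3A-HDAC complex and the target of one of the siRNAs, with 25, 22 and 31 reads where the next library had 513. The 3 lowest libraries of 8 of the 38 genes were set A, and those of 4.65% of all genes. Its 3 libraries had the 3 lowest medians over the 38 genes of all 45 libraries. The median log2 difference from each gene's own median was -0.53, -0.59 and -0.70 in them and -0.33 in the next library, while the median over all genes was between -0.02 and 0 there. In all 3 libraries 25 of the 38 genes (65.8%) lay below the median of the other 42 libraries, beside 40.1% of all genes and 49.2% of the other pathway genes. Set C, which holds that next library, came close to this. There 23 of the 38 genes (60.5%) lay below in all 3 libraries, beside 38.3% of all genes and 42.4% of the other pathway genes.

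OAS3, which makes oligoadenylate when it binds double-stranded RNA (chr12:113375856-113414265 on GRCh37), lay at log2 values of 3.18, 3.48 and 3.48 in set A, in the order of the libraries above. The next library was at 4.52 and the median of the 45 libraries was 5.65, so that the set did not overlap with any other library and its highest value was 2.05-fold below the next. HERC6, of the family of HECT ligases that attach ISG15, lay at -0.55, -0.56 and -0.81, with the next library at 0.36. Its counts were low, with 7 reads in each library of set A and 13 in the next. HERC5, the main ISG15 ligase in human cells, which lies beside HERC6 on chromosome 4, lay at 2.18, 2.19 and 2.27, with the next library at 2.58. PARP14, a mono-ADP-ribosyltransferase, lay at 4.13, 3.75 and 3.97, and the next library at 4.75. These genes stood clear of the other 42 libraries, by 1.24-fold for HERC5 and 1.54-fold for PARP14.

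DTX3L, a ubiquitin ligase that works with PARP9, lay at 3.36, 3.37 and 3.25 in set A, with the next library at 3.63. Its head to head neighbour PARP9, with a start 239 bp away on the other strand, lay at 1.57, 1.68 and 1.79, and 1 library outside the set was at 1.68. PARP12 lay at 2.09, 2.43 and 2.42, with the next library at 2.69. IRF7, the factor that amplifies the interferon response, lay at 0.40, -0.22 and 0.03, with the next library at 0.49 and a median of 2.31. EIF2AK2, the kinase PKR that stops translation on double-stranded RNA, had the narrowest separation, at 6.38, 6.45 and 6.44 beside 6.51. The gap to the next library was 0.09 on the log2 scale for IRF7 and 0.06 for EIF2AK2.

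Not all genes of the list were low in set A. ISG15 itself had its 3 highest libraries there, at 6.11, 6.02 and 6.07, with the next library at 5.99, and so did IFITM3, at 7.91, 7.81 and 7.90, with the next at 7.72. These are 2 of 38 genes, beside 4.42% of all genes, and they stood only 1.02-fold (ISG15) and 1.06-fold (IFITM3) above the next library. The ISRE letters shown above are in the promoters of ISG15 as well as OAS3 and PARP14. They stood in 4 of the 7 genes lowest in set A that had a RefSeq promoter (57.1%). The share was 58.1% among the 31 listed genes with a promoter. Of the 5 antigen presentation genes, 4 (TAP1, B2M, HLA-B and HLA-C) lay above the median of the other 42 libraries in all 3 libraries of set A, as did 9 of the 38 genes and 37.6% of all genes. TAP1, the peptide transporter, lay at 5.97, 6.12 and 5.86 where the other 42 libraries had a median of 5.15, and B2M at 8.38, 8.43 and 8.42 where they had 8.22. USP18, which removes ISG15 from proteins and blocks the interferon receptor, lay at -0.99, -0.07 and -0.20, under the median of 1.85 of the other 42 libraries and overlapping with their lowest of -0.47. OASL, an OAS relative without synthetase activity, lay at -2.13, -1.01 and -1.91, at the limit of detection. CD274 (PD-L1), of the other pathway genes, also had its 3 lowest libraries in set A. The part of SAP130 in these values was not tested.

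**Figure D4:**
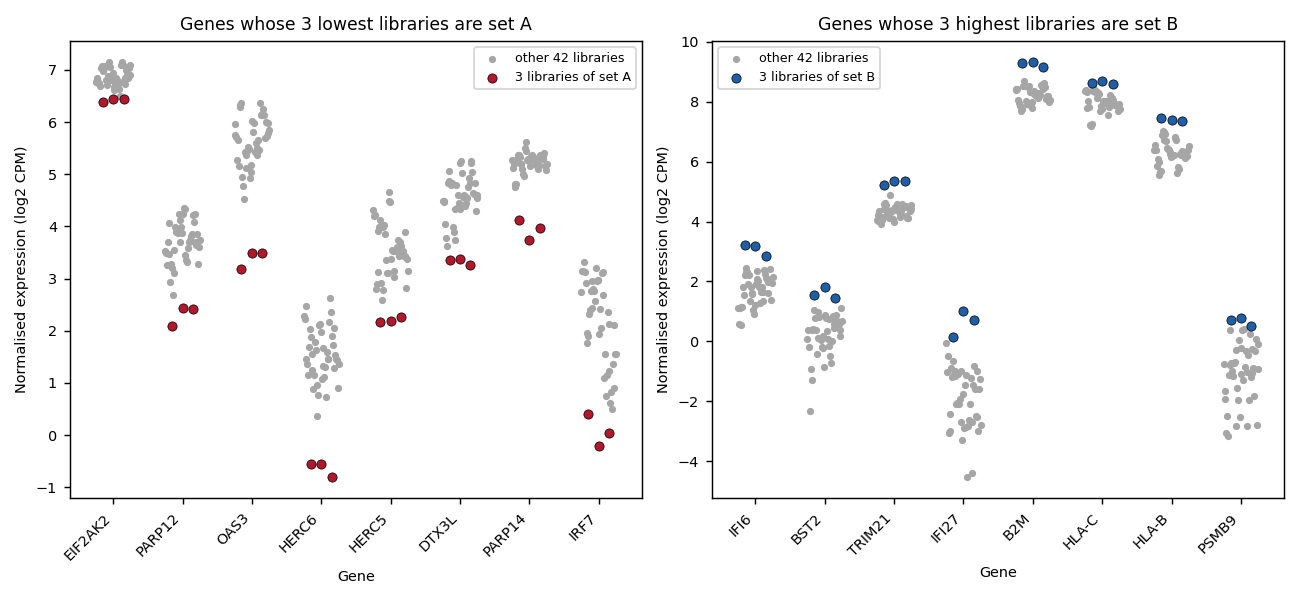
Normalised expression (log2 CPM) of the 8 genes whose 3 lowest libraries are set A (left, red) and of the 8 genes whose 3 highest libraries are set B (right, blue); grey points are the other 42 libraries. OAS3 in set A lies between 3.18 and 3.48, under the next library at 4.52, and B2M in set B between 9.17 and 9.34, above the next at 8.68.

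Set B held the highest libraries of the MHC class I genes. It joins the libraries listed as siPOLR2D replicate 3, mock replicate 2 and siCDK10 replicate 2, and it held the 3 lowest libraries for POLR2D, a subunit of RNA polymerase II, with 87, 102 and 147 reads where the next library had 759. The 3 highest libraries of 8 of the 38 genes were set B, beside 9.59% of all genes. The 3 lowest libraries of 0 of the 38 were set B, beside 8.64% of all genes. In all 3 libraries 20 of the 38 genes (52.6%) lay above the median of the other 42 libraries, and 8 (21.1%) below. Of all genes, 38.1% lay above and 44.2% below, and of the other pathway genes 66.1% and 22.0%. B2M (chr15:45003556-45011049 on GRCh37) lay at 9.29, 9.34 and 9.17 with the next library at 8.68 and a median of 8.23. HLA-B, a class I heavy chain, lay at 7.45, 7.39 and 7.36, with the next at 7.02, and HLA-C at 8.63, 8.69 and 8.60, with the next at 8.47. The gap to the next library was 0.48 on the log2 scale for B2M, 0.35 for HLA-B and 0.12 for HLA-C. TAP1 lay at 5.90, 5.89 and 5.70, above the median of 5.15 of the other 42 libraries but under their highest of 6.12. HLA-B and HLA-C share long stretches of sequence, so reads may be split between them.

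Another 5 genes of the list had their 3 highest libraries in set B. BST2 (tetherin), which holds budding virus to the cell, lay at 1.53, 1.81 and 1.45, with the next library at 1.11. IFI6 lay at 3.20, 3.20 and 2.86, with the next at 2.46, and TRIM21, the cytosolic antibody receptor, at 5.23, 5.34 and 5.36, with the next at 4.87. IFI27 and PSMB9 were at the limit of detection in many libraries, and their highest counts were 27 and 23 reads. Of these 8 genes, 6 held CCAAT in the 250 bases before the start (B2M, BST2, HLA-B, HLA-C, IFI6 and PSMB9) and 4 held the ISRE letters. Among the 31 listed genes with a promoter, 41.9% held CCAAT and 58.1% the ISRE letters. The shares over all promoters were 32.0% and 3.02%. IFI35 and USP18 lay below the median of the other libraries in all 3 libraries of set B, at -0.24 to -0.16 and at 0.85 to 1.13, beside medians of 1.51 and 1.85. Of the 59 other pathway genes, 11 had their 3 highest libraries in set B, beside 9.59% of all genes. Among them were MAVS, CMPK2, NLRC5, ERAP1, STAT3, MYD88, SOCS1, HLA-E, IFI30 and APOL6. SOCS1 and APOL6 had medians of only 7 and 1 reads over the 45 libraries. NLRC5, the transactivator of MHC class I genes, lay at 2.36 in its highest library with the next library outside the set at 2.05. RIGI, TICAM1 and JAK1, 3 of the 59, had their 3 lowest there, beside 8.64% of all genes. The part of POLR2D was likewise not tested.

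Of the other sets, C and D each held the 3 highest or lowest libraries of 3 genes, E and F of 2, G, H and I of 1, and J to O of 0. Set C was highest for 2 of the 38 genes (4.55% of all genes) and lowest for 1 (5.48%). Set D was highest for 2 (1.32%) and lowest for 1 (1.16%), and set E highest for 2 (3.56%). Set F was lowest for 2 (3.13%), and G, H and I were highest for 1 each (3.82%, 0.93% and 0.82%). Counts this small are not read as a trait of the listed genes. In all 3 libraries of set D, 21 of the 38 genes (55.3%) lay above the median of the other 42 libraries, and 9 (23.7%) below. Of all genes, 35.1% lay above and 33.2% below, and of the other pathway genes 33.9% and 37.3%. IFIT1, which binds viral RNA, had its 3 highest libraries in set D, at 1.90, 2.08 and 2.55, where the next library was at 1.59 and the median at 0.41. IFIT2 lay at 2.17, 2.25 and 2.59 in set D, with a library outside it among its 3 highest. In the same set HLA-C had its 3 lowest libraries, at 7.22, 7.18 and 7.24, with the next at 7.55. Set D also held the 3 lowest libraries for EIF3L, with 102, 106 and 123 reads. PARP9 was highest there, at 3.92, 3.84 and 3.92, clear of the next library by 0.04. IFIT5, which lies beside IFIT1 on chromosome 10, had its 3 lowest libraries in set F, at 3.44, 3.54 and 3.69, with the next at 4.61, 1.88-fold higher. IFIT1 lay at -0.71, 0.27 and -0.62 in these libraries, under its median of 0.41 as well. IFITM3 was lowest in set F as well, at 6.48, 6.76 and 6.61, with the next library at 6.80, a gap of only 0.03.

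In set C, USP18 was highest at 2.90, 2.72 and 2.86, with the next library at 2.55, and IFITM2 at 5.89 to 6.11, with the next at 5.77. BST2 was lowest in set C, at -2.33, -0.91 and -1.27, with 2, 10 and 5 reads. Its next library was at -0.86 with 6 reads, a gap of only 0.06 at low counts. ADAR was highest in set E at 9.27, 9.37 and 9.33, with the next at 9.07, and TRIM25, a ubiquitin ligase for RIG-I, at 8.23, 8.34 and 8.28, with the next at 7.97. PARP14 was highest in set G and PARP12 in set I, at 1.02-fold and 1.00-fold over the next library.

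Set H bears on the JAK-STAT pathway, since it held the 3 lowest libraries of JAK2, the kinase under the interferon gamma receptor, with 7, 3 and 4 reads where the median over the 45 libraries was 110. HERC5 was highest there, at 4.48, 4.66 and 4.47, with the next library at 4.31, and 0 of the 38 genes had their 3 lowest libraries in set H. Set H held the 3 lowest libraries of 0.535% of all genes, so nothing is read from this 0. IRF1, a transcription factor induced by interferon gamma, lay at 3.84, 4.11 and 3.82 where its median was 3.62, and 22.9% of its exonic bases overlap IRF1-AS1 on the other strand, for which the counting's strand setting is not given in the sources used here. B2M lay at 7.84, 7.97 and 7.79, under its median of 8.23. The median deviation of the 38 genes in these libraries was -0.15 to 0.05 on the log2 scale.

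**Figure D5:**
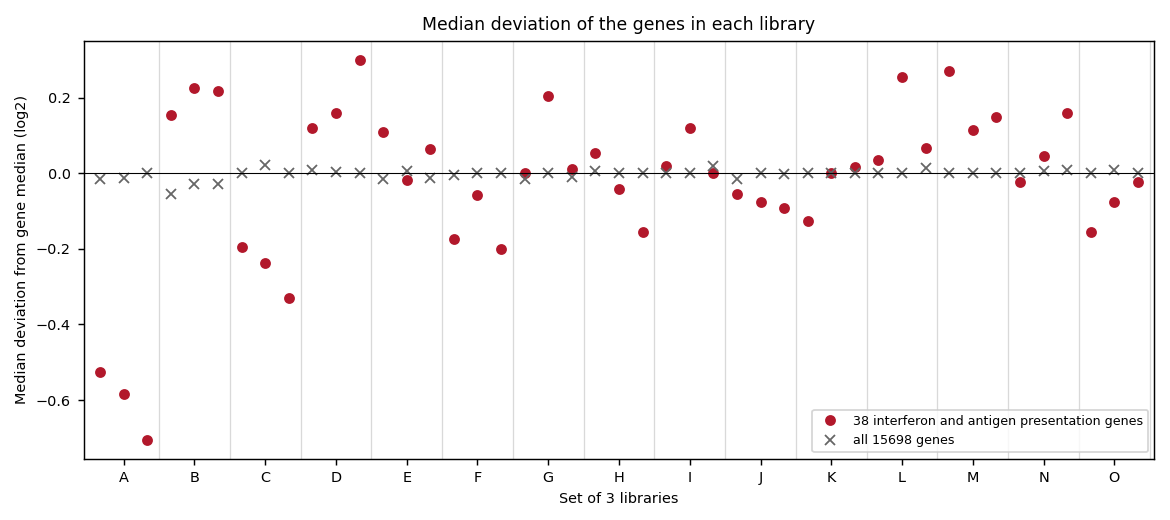
Median over the 38 genes (red) and over all 15698 genes (grey) of the log2 value minus the gene's median, in each of the 45 libraries by set. The 3 libraries of set A lie at -0.70, -0.59 and -0.53 and the next lowest at -0.33, while the medians of all genes stay near 0.

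Genes given in full by their spread differed in where they were high. OASL spanned -2.13 to 1.80 (median 0.08, s.d. 0.88), IFIT2 -0.71 to 2.59 (median 0.58, s.d. 0.84) and IFIT1 -1.08 to 2.55 (median 0.41, s.d. 0.81). SAMD9, a restriction factor for poxviruses, spanned -0.45 to 3.13 (median 1.77, s.d. 0.82) and ISG20, an RNA exonuclease, -0.22 to 2.78 (median 1.30, s.d. 0.64). USP18 spanned -0.99 to 2.90 (s.d. 0.85) and IFI35 -0.64 to 2.91 (median 1.35, s.d. 0.78). TLR3 ranged from 0 to 27 reads. The narrowest were EIF2AK2 (s.d. 0.20), IRF3, the factor downstream of the RNA sensors (s.d. 0.20), TRIM25 and ADAR (s.d. 0.21 each). IFIH1, in between, spanned 2.46 to 4.42 (s.d. 0.48), and TAP1 4.48 to 6.12 (s.d. 0.42). IRF2 had a s.d. of 0.34. IFIT3 spanned -1.55 to 1.69 and IFITM1 -2.94 to 0.84.

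Of 90 other genes of the pathway, 59 were in the table and 10 of these had a s.d. of at least 0.75, beside 14% of all genes. Of 10 interferon ligands 0 were in the table, so no interferon transcript could be followed, while all 15 receptor and JAK-STAT genes were. Among genes with a median of at least 10 reads, those with the largest s.d. are named for each list. In the receptor list JAK2 (s.d. 1.21) and IL10RB (s.d. 0.55) came first. Among genes upstream in nucleic acid sensing, 9 of 15 were in the table and 0 reached 0.75, with STING1 at 0.51 and MYD88 at 0.48. Of other interferon-stimulated genes 15 of 28 were in the table, with CMPK2 (s.d. 1.05) and CD274 (s.d. 0.93) named by this rule. Of other antigen presentation genes 20 of 22 were, with NLRC5 (s.d. 0.84) and HLA-F (s.d. 0.76).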

How the data were processed

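RNA of HCT116-VR cells was sequenced in 45 libraries, 3 for mock transfection and 3 for each of 14 siRNAs. Per the labels, the build is GRCh37 and the tools include TopHat 1.4.1, CASAVA 1.8.2, HTSeq and limma; the paper names single-end reads, HTSeq-count, and EdgeR with Limma-Voom. The values that the authors deposited are log2 CPM over scaled library sizes, computed from counts plus 0.5 reads. Whole reads were recovered for 100% of values by reading each library's lowest value as 0 reads. Library totals and the limit of 3 reads cover counting error only. Columns were matched to samples by the supplement's sample list, and 0 columns of per-sample values were left out. The listed replicate numbers did not pair libraries.

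The list of 47 genes, the lists of other pathway genes and markers, and the tests were chosen with earlier results of these data known. Listed groups were compared with limma 3.58.1 in R 4.3.3 (1 fit with trend, genes at a log2 value of -1 or more in 3 or more libraries); 38 genes were tested. P-values measure the spread between libraries of a listed group. The 3 libraries of each listed group stood in 3 different sets, so this is not the spread of libraries that cluster together. The scripts were tested on simulated data. Sets of 3 libraries are clades of a tree (1 minus the uncentred Pearson correlation, average linkage, s.d. of at least 0.75). Trees, counts and plots used Python 3.11.15, numpy 2.4.6, pandas 2.3.3, scipy 1.17.1 and matplotlib 3.10.9. Genes named in full are, in each role group, the 3 with the largest s.d. among those with a median of at least 10 reads, and every gene whose 3 highest or lowest libraries form 1 set; of each pathway list the 2 with the largest s.d. are named, also among those with a median of at least 10 reads. Genes in the account of set A and set B beyond this rule (TAP1, OASL, PARP9, USP18 and IFI35) were chosen after their values were seen. Coordinates and exon lengths are those of GENCODE 44 on GRCh37, and promoters those of RefSeq on GRCh38.p14. Alternatives to the filter, scaling, weights, samples, tree and cut-offs, and leaving out each library, were tried. Some single genes of the pathway lists are not reported here.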

Additional observations from a re-analysis of the deposited data

How the results depend on the processing

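By listed names, 0 of the 38 genes were called under every alternative run, leaving out 1 library at a time included. The number of tests at an unadjusted p under 0.05 (20) ranged from 16 to 40 when 1 library was left out, with 40 without the library listed as mock replicate 1 and 31 without siJAK2 replicate 3. With the listed replicate number as a replicate block it was 21; the median correlation of same-numbered libraries' deviations was -0.00035 over 315 pairs, so the numbers were not treated as pairs. With a s.d. cut-off of 1.00, 3 genes had a large spread in place of 12, and leaving out libraries gave 11 to 13. The genes whose 3 highest libraries form 1 set were 11 to 20 of 38 with 1 library left out (11 without each of the libraries of set B, whose set is then no longer whole) and those for the 3 lowest were 4 to 13 (4 without each library of set A). The 8 genes lowest in set A became 8 to 9 and the 8 highest in set B stayed at 8 when 1 of the other 42 libraries was left out. These alternatives for sets A and B, quantile normalisation of the sets and the limit to genes with a median of 10 reads were chosen after seeing the data. Of the s.d. values of single genes, 15 moved by more than their jackknife standard error, 13 of them with 5 reads added to each count. Depth limits IFI27, PSMB9, IFITM1, OASL and TLR3, and the listed names limit every comparison with mock.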
